A study of Mus musculus with 241 samples.

Results

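Early T-cell progenitors (ETPs) sorted as Flt3- were compared with ETPs sorted as Flt3+, to ask which genes differ across the Flt3 gate within the earliest thymic stage. The comparison rests on 4 bulk RNA-seq libraries, 2 of each population, out of 12 bulk libraries and 241 samples in all. The members were taken by the sort that the labels name. All 4 libraries came from thymus of C57BL/6 mice of genotype Bcl11b yfp/yfp, in which both alleles of Bcl11b carry a yellow fluorescent reporter. Every cell was 7AAD-, lineage-negative, Kit+ CD44+ and CD25-, and the populations differed in surface Flt3 alone. The labels give no age, no treatment and no number of mice, and they do not tie the libraries of a population to separate mice, so the p-values cover only library-to-library spread, possibly technical in origin. Each population had 1 library made with NEBNext Ultra (replicate 1) and 1 made with a SMART-Seq kit (replicate 2). The remaining bulk libraries held undivided CD25- cells (total ETP, 2 libraries) and the CD25+ DN2a stage without or with the Bcl11b reporter (3 libraries each).

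ETPs are the most immature T-cell precursors in the thymus. They still express genes of multipotent blood progenitors and can give rise to myeloid, mast, dendritic and natural killer cells under permissive conditions, while Notch signalling drives them towards the T lineage. Flt3 encodes a receptor tyrosine kinase for the cytokine Flt3 ligand. It marks lymphoid-primed progenitors arriving from the bone marrow and is lost as ETPs progress towards DN2a, the stage at which CD25 appears.

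Levels are in FPKM (reads per length of gene model, scaled to library depth, as deposited). A pair of values is given in the order NEBNext library, SMART-Seq library. Flt3 itself read 78.5 and 61.9 FPKM for Flt3+ cells against 19.3 and 24.9 FPKM for Flt3- cells, so the gate gene was lower in each Flt3- library but was not absent there. The progenitor receptor gene Kit stood at 56.7 and 33.6 FPKM in Flt3+ and at 51.3 and 28.04 FPKM in Flt3- cells. The 4 libraries held between 28627685 and 37683802 reads on gene models, as recovered from the FPKM values. Spearman correlations across genes were 0.951 within the NEBNext pair, 0.984 within the SMART-Seq pair and 0.809 to 0.817 between kits. Levels of single genes differed by kit. Cd3g, a T-cell receptor subunit gene, stood at 52.5 FPKM in Flt3+ and 39.9 FPKM in Flt3- cells of the NEBNext pair. In the SMART-Seq pair it stood at 5.42 and 0.71 FPKM. The summed level of the genes of T-cell receptor signalling and recombination was not higher in the NEBNext pair. It was 1098 and 833 FPKM there in Flt3+ and Flt3- cells, against 1154 and 932 FPKM in the SMART-Seq pair. The differences within a pair also varied with gene length, more so in the NEBNext pair. The tested genes were divided by model length into 5 groups of nearly equal size. The median difference of the NEBNext pair fell from 0.12 in the shortest group to -0.48 in the longest. That of the SMART-Seq pair was 0.15 in the shortest group, -0.17 in the fourth and -0.08 in the longest. Which library of a pair carries the trend was not tested. Of the genes called below, 26 of 51 rises lay in the shortest group and 20 of 32 falls in the longest 2 groups (15 and 5). With this trend removed from every library, 47 of the rises and 21 of the falls remained called.

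Of 12112 genes tested, 83 (0.685%) passed an adjusted p of 0.05 in limma, 51 (0.421%) higher and 32 (0.264%) lower in Flt3- ETPs. Differences are means of the 2 pair differences on the log2(FPKM + 1) scale, with standard errors (SE) from the fit. Their median over all genes was -0.15, with -0.24 in the NEBNext pair and -0.03 in the SMART-Seq pair. Across genes, the differences of the 2 pairs, which share no library, had a Pearson r of 0.44, and 65.8% of genes had the same sign in both. The rises fall into genes of mast cells and basophils, genes of granulocytes, Fc receptor and related membrane genes, and a smaller group with Tcf7, Muc13 and Scin. The falls hold genes of cell division and a group with Ccr9, Il6st, Hmga2, Hnf4a and Gfra1. The calls depended on single libraries. Without the NEBNext Flt3- library 30 genes passed, all rises, and 25 of the 51 rises and none of the 32 falls were among them. Without the SMART-Seq Flt3- library 1605 genes passed, 1274 of them lower. Without the NEBNext or the SMART-Seq Flt3+ library, 24 and 14 genes passed. Of the 80 called genes with a name, 59 and 68 lost their call in these 2 cases, 55 without the NEBNext Flt3- library and 0 without the SMART-Seq one. No named gene changed sign under any of the 14 alternatives. Where an alternative changed only the blocking term, the filter or the other populations, the difference was unchanged by design and its sign could not turn. Where groups are said below not to overlap, each Flt3- library lies beyond each Flt3+ library. The share of all genes tested with such a separation was not counted, so it is a description only.

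**Figure D1:**
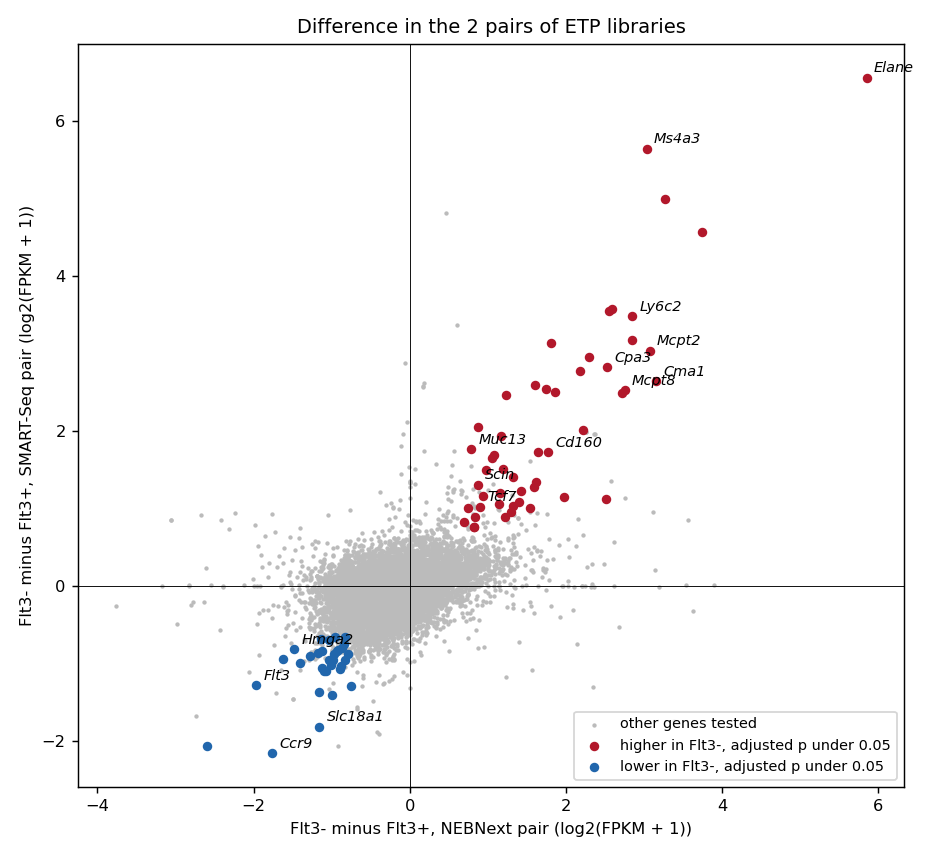
Flt3- minus Flt3+ on the log2(FPKM + 1) scale in the NEBNext pair (x axis) and the SMART-Seq pair (y axis), 1 point per gene tested, with the 51 rises in red and the 32 falls in blue. Elane lies at the upper right at 5.85 and 6.56, and the grey cloud is centred left of 0 on the x axis, at a median of -0.24.

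Tcf7 was the single T-lineage regulator that passed. It encodes TCF1, a transcription factor induced early by Notch signals in the thymus (chromosome 11, 52252283 to 52282595, minus strand, mm10). Tcf7 measured 68.5 and 30.4 FPKM in Flt3+ cells and 128.7 and 62.9 FPKM in Flt3- cells. Within each kit the Flt3- library was higher, while across kits the populations overlapped, since the SMART-Seq value in Flt3- cells lay below the NEBNext value in Flt3+ cells. The difference was 0.96 ± 0.12 (SE, 2 libraries against 2, adjusted p = 0.00364). The call was lost without the NEBNext Flt3+ library (1.00 ± 0.16, adjusted p = 0.0537) and without the SMART-Seq Flt3+ library (0.93 ± 0.16, adjusted p = 0.0795). Of 26 T-lineage regulators tested, 1 rose and none fell, with a median of -0.34 against -0.15 over all genes, and the smallest p-values after Tcf7 belonged to Ets1 (-0.64 ± 0.15) and Foxo1 (-0.62 ± 0.18), neither of which passed.

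Of 28 genes of the Notch pathway, Tcf7 alone passed, and the median was -0.20. Hes1, a direct Notch target that encodes a repressor, measured 37.9 and 44.2 FPKM in Flt3+ and 46.2 and 59.7 FPKM in Flt3- cells. Dtx1, another Notch target, measured 3.93 and 0.255 FPKM in Flt3+ and 5.88 and 1.88 FPKM in Flt3- cells. Both lay higher in each Flt3- library, by 0.35 ± 0.15 and 0.84 ± 0.35, without passing (adjusted p = 0.268 and 0.257). Notch1, the receptor gene, measured 71.6 and 8.34 FPKM in Flt3+ and 37.9 and 7.88 FPKM in Flt3- cells, so its difference lay almost wholly in the NEBNext pair. None of 31 genes of T-cell receptor signalling and recombination passed (median -0.28). Dntt, which encodes the enzyme that adds bases at receptor gene joints, was abundant in all 4 libraries, at 488 and 531 FPKM in Flt3+ and 347 and 351 FPKM in Flt3- cells (-0.54 ± 0.21, adjusted p = 0.241).

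Ccr9 showed the largest fall among named genes. It encodes the receptor for the chemokine CCL25, which draws progenitors into the thymus (chromosome 9, 123767211 to 123783457, plus strand). Ccr9 measured 11.9 and 15.5 FPKM in Flt3+ cells and 2.81 and 2.70 FPKM in Flt3- cells, and the groups did not overlap (-1.96 ± 0.25, adjusted p = 0.00364). The call was lost without the NEBNext Flt3- library (-1.95 ± 0.32, adjusted p = 0.0543) and without the SMART-Seq Flt3+ library (-1.70 ± 0.30, adjusted p = 0.0795). It was the 1 call among 38 genes of chemokine receptors, selectin ligands and adhesion. Ccr7, encoding another receptor of thymic homing, lay lower in each Flt3- library without passing, at 3.97 and 8.61 FPKM against 2.17 and 4.15 FPKM. Cd34, a sialomucin gene of blood progenitors, was likewise at 215.3 and 372 FPKM in Flt3+ and 138.3 and 231 FPKM in Flt3- cells (-0.66 ± 0.20, adjusted p = 0.175).

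Among 39 cytokine and growth-factor receptor genes, 2 fell, Flt3 itself and Il6st, and none rose. Il6st encodes gp130, the shared signalling chain of the interleukin-6 receptor family, and measured 17.1 and 3.88 FPKM in Flt3+ and 7.25 and 2.05 FPKM in Flt3- cells (-0.91 ± 0.17, adjusted p = 0.0427). It kept its call in 4 of 14 alternatives. Il6ra, the partner chain, measured 3.49 and 1.90 FPKM in Flt3+ and 0.842 and 1.09 FPKM in Flt3- cells and did not pass (adjusted p = 0.130). Il7r, encoding the interleukin-7 receptor that later supports T-cell precursors, was at 9.03 and 8.66 FPKM in Flt3+ and at 3.32 and 4.44 FPKM in Flt3- cells, groups that did not overlap (-1.02 ± 0.23, adjusted p = 0.0837). None of the 16 tested genes of lymphoid-primed progenitors and the B lineage passed. Gfra1, encoding a co-receptor for the neurotrophic factor GDNF, measured 19.3 and 12.1 FPKM in Flt3+ and 8.48 and 5.16 FPKM in Flt3- cells (-1.10 ± 0.19, adjusted p = 0.0272). The groups of Gfra1 did not overlap either, but its call was kept in 5 of 14 alternatives and lost without either Flt3+ library (adjusted p = 0.150 and 0.234) or the NEBNext Flt3- library (0.285).

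Genes of several regulators and of secreted or membrane proteins also fell. Hnf4a, a nuclear receptor gene best known from liver, measured 18.4 and 6.06 FPKM in Flt3+ and 6.31 and 2.54 FPKM in Flt3- cells (-1.20 ± 0.19, adjusted p = 0.0213), and lost its call without either Flt3+ library (adjusted p = 0.173 and 0.149) or the NEBNext Flt3- library (0.255). Hmga2, encoding a chromatin protein of fetal and self-renewing cells, measured 9.96 and 5.97 FPKM in Flt3+ and 2.94 and 2.96 FPKM in Flt3- cells (-1.15 ± 0.22, adjusted p = 0.0462). The 2 Flt3- values of Hmga2 were nearly equal and lay below both Flt3+ values, but the call was kept in 3 of 14 alternatives only. Irf7, a regulator of interferon responses, measured 23.9 and 25.6 FPKM in Flt3+ and 12.7 and 14.4 FPKM in Flt3- cells (-0.83 ± 0.16, adjusted p = 0.0427). Its call was kept in 6 of 14 alternatives and lost without either Flt3+ library (adjusted p = 0.173 and 0.303) or the NEBNext Flt3- library (0.407). Irf7 was the 1 fall among 39 interferon-stimulated genes, whose median was -0.51. Of the 39, 31 were lower in both pairs, against 5483 of all 12112 genes tested. Oas3 (-0.78 ± 0.19) and Dhx58 (-0.74 ± 0.21), a sensor of viral RNA, did not pass.

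Further falls outside cell division followed. Ankrd6, whose product acts in Wnt signalling, measured 9.96 and 10.1 FPKM in Flt3+ and 3.92 and 3.28 FPKM in Flt3- cells (-1.26 ± 0.21). Slc18a1, a vesicular monoamine transporter gene, measured 2.82 and 7.40 FPKM in Flt3+ and 0.713 and 1.39 FPKM in Flt3- cells (-1.49 ± 0.28). Sema3d, a secreted guidance factor gene, measured 3.17 and 3.32 FPKM in Flt3+ and 0.992 and 1.02 FPKM in Flt3- cells. In all 3 genes the groups did not overlap. Shisa8 (-1.29 ± 0.22), Stc1 (-1.19 ± 0.23), encoding the hormone stanniocalcin, Gcnt2 (-1.09 ± 0.21), Bcam (-1.02 ± 0.20), Gria2 (-1.02 ± 0.19), encoding a glutamate receptor subunit, and Amica1 (-0.99 ± 0.19) also fell. They stayed at or below 5.68 FPKM in all 4 libraries. Pygb, encoding a glycogen phosphorylase, was at 19.1 and 4.27 FPKM in Flt3+ and 8.25 and 1.96 FPKM in Flt3- cells (-0.98 ± 0.19). Of 64 mitosis genes 12 fell, with a median of -0.70. Lower in both pairs were 62 of the 64, against 5483 of all 12112 genes tested. Tacc3 and Cdca5, which also act in cell division but were not on that list, fell by 0.81 and 0.84 on the log2 scale.

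**Figure D2:**
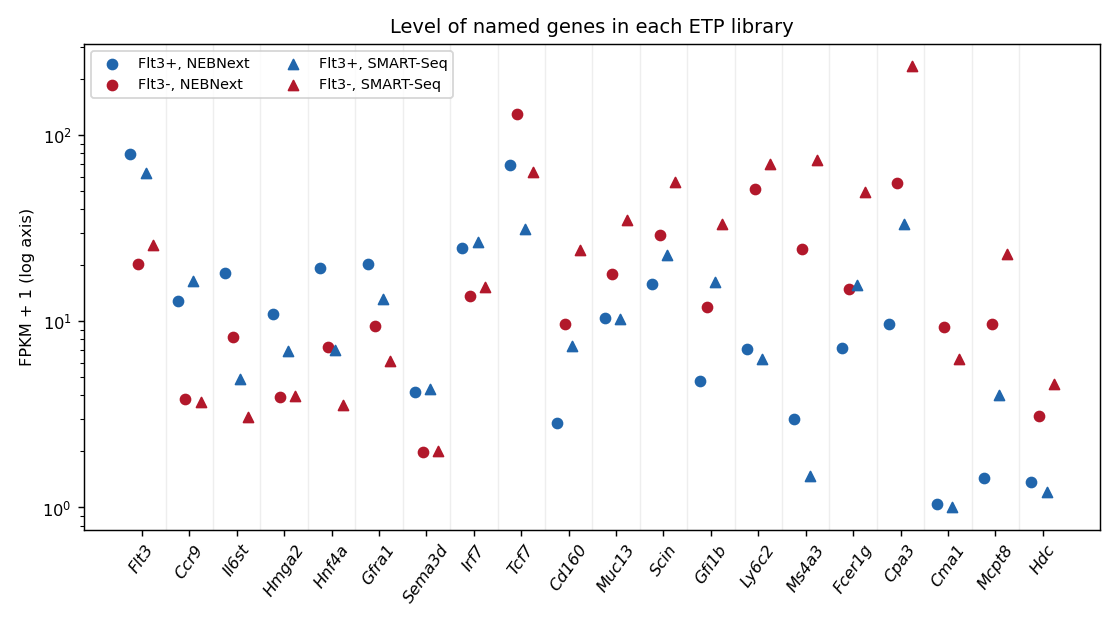
Level (FPKM + 1, log axis) of 20 called genes in the 4 ETP libraries, with Flt3+ in blue and Flt3- in red, NEBNext libraries as circles and SMART-Seq libraries as triangles. Ccr9 fell from 11.9 and 15.5 to 2.81 and 2.70 FPKM with no overlap, while Tcf7 differed by kit as well as by population.

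Genes of mast cells and basophils formed the largest group of rises outside the granulocyte genes. Mast cells and basophils store proteases and histamine in granules and release them when IgE receptors are cross-linked. Of 21 such genes tested, 9 rose and none fell, with a median of 1.199. Higher in both pairs were 14 of the 21, against 2476 of all 12112 genes tested. Of all 31 genes on the list, 8 were below 1 FPKM in all 4 libraries. The list was chosen with earlier results of these data known, and 4 of the 9 (Cma1, Cpa3, Mcpt4 and Mcpt8) also stand on the granule list. Cma1, the mast cell chymase gene, measured 0.045 and 0 FPKM in Flt3+ cells and 8.29 and 5.24 FPKM in Flt3- cells (2.90 ± 0.24, adjusted p = 0.00014). Mcpt8, encoding a basophil protease, measured 0.438 and 3.01 FPKM in Flt3+ and 8.70 and 22.1 FPKM in Flt3- cells (2.64 ± 0.31, adjusted p = 0.00279). Both were near background in at least 1 Flt3+ library and were higher in each Flt3- library. Mcpt8 lost its call without the NEBNext Flt3- library (2.25 ± 0.36, adjusted p = 0.0543) and without the SMART-Seq Flt3+ library (2.395 ± 0.40, adjusted p = 0.0720). Mcpt1 (3.08 ± 0.52) and Mcpt2 (3.05 ± 0.59) encode closely related chymases whose reads may be shared, so their separate values are uncertain.

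Genes of the IgE receptor and of histamine synthesis rose at lower levels. Hdc, encoding the enzyme that makes histamine, measured 0.377 and 0.206 FPKM in Flt3+ and 2.10 and 3.63 FPKM in Flt3- cells (1.56 ± 0.23, adjusted p = 0.0107). Ms4a2, the beta chain of the IgE receptor, was at 0 and 0.008 FPKM in Flt3+ and at 1.10 and 2.25 FPKM in Flt3- cells (1.38 ± 0.22, adjusted p = 0.0192). Without the NEBNext or the SMART-Seq Flt3+ library the calls of Hdc (adjusted p = 0.0562 and 0.149) and Ms4a2 (0.0983 and 0.157) were lost. Tph1, whose product starts serotonin synthesis in mast cells, was at 0 in both Flt3+ libraries and at 1.90 and 1.01 FPKM in Flt3- cells. Rab44, a GTPase gene of mast cells, measured 3.90 and 0.476 FPKM in Flt3+ and 11.2 and 2.91 FPKM in Flt3- cells (1.36 ± 0.23). Cpa3, the mast cell carboxypeptidase gene, was far more abundant, at 8.67 and 32.3 FPKM in Flt3+ and 54.7 and 235 FPKM in Flt3- cells. Of list members that did not pass, Gata2, a transcription factor gene of mast cells and early progenitors, measured 0.909 and 1.25 FPKM in Flt3+ and 3.79 and 2.29 FPKM in Flt3- cells (adjusted p = 0.110). The summed level of the list was 300 and 444 FPKM in Flt3+ and 465 and 903 FPKM in Flt3- cells. In bulk samples, more cells of a type and more RNA per cell cannot be told apart, and the part of a few mast cells or basophils in these rises was not tested.

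Of the called genes, 6 lie in the mast cell protease cluster on chromosome 14. Between Cma1 and Ctsg (55941451 to 56102574, mm10) the table lists 10 genes, of which Cma1, Mcpt1, Mcpt2, Mcpt4, Mcpt8 and Ctsg rose. The granzyme genes that follow Ctsg, from Gzme to Gzmf, were listed at 0 in all 4 libraries. Other called neighbours were Prtn3 and Elane on chromosome 10, Ms4a2 and Ms4a3 on chromosome 19, Ly6c1 and Ly6c2 on chromosome 15, and S100a8 and S100a9 on chromosome 3, and each of these pairs rose. Of 9 mast cell gene promoters searched, the 4 that hold the letters AGATAA or TGATAA, the core bound by GATA factors, are shown. These letters are in capitals on either strand. Each sequence (RefSeq, GRCm38.p6) runs from 250 bases before to 50 after the start site, in the direction of transcription. The promoters of Cma1, Mcpt8, Hdc, Tph1 and Fcer1g hold no such letters and are not shown.
Mcpt1 (chr14:56017714-56018013, plus strand) and Mcpt4 (chr14:56062261-56062560, minus strand) are related copies, and Cpa3 (chr3:20242132-20242431, minus strand) and Ms4a2 (chr19:11623670-11623969, minus strand) are unrelated genes.
Mcpt1: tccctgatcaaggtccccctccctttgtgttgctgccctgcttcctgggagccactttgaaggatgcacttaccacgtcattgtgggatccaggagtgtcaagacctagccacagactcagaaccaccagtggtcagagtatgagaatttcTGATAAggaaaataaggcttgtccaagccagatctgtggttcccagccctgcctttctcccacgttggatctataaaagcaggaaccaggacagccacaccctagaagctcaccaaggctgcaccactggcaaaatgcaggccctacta
Mcpt4: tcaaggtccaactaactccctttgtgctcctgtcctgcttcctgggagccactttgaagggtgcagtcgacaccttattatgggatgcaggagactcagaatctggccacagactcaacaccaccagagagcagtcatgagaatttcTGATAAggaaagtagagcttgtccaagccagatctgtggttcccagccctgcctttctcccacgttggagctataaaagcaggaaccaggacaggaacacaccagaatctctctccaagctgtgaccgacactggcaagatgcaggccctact
Cpa3: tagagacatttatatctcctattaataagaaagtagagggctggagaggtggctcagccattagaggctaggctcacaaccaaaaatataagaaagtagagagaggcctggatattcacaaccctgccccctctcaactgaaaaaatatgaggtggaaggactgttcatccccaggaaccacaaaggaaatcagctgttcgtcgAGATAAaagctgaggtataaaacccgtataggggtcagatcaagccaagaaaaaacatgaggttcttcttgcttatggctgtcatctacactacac
Ms4a2: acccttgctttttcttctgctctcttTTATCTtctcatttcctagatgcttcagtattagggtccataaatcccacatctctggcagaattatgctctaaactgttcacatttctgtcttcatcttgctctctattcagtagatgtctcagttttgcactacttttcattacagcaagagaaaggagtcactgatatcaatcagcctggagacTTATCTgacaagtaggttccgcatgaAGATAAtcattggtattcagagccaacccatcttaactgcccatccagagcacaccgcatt

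The run of capitals begins 99 bases before the start site in Mcpt1. In Cpa3 it begins 46 bases before the start site, and Ms4a2 holds 3 runs, the nearest at 37 and 11 bases. The set searched was 11 called genes of mast cells (the 9 above with Tph1 and Fcer1g), of which 9 matched the promoter table and 4 hold such a run, as do 11 of 38 promoters of rises and 3 of 24 of falls. Over the 9154 promoters of genes tested the share was 10.2%, and over all 27025 promoters 18.95%. The letters GAGGAA, the core of PU.1 sites, were in 19 of 38 promoters of rises and 1 of 24 of falls, against 26.9% of tested genes. CTTTGAT or CTTTGTT, the core of TCF sites, were in 3 of 38 and 2 of 24, against 6.22%. Each run was searched on both strands, none is contained in another, and a match is a description of the sequence. Related copies such as Mcpt1 and Mcpt4 are counted separately.

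The list of ITAM adaptors (carriers of the phosphorylation motif used by Fc and natural killer receptors), Fc receptors and paired receptors, inhibitory ones included, had 4 rises and no fall among 30 genes tested, with a median of 0.19. The rises were Fcer1g, Fcgr3, Lst1 and the Ms4a2 described above. Fcer1g, the gamma chain shared by Fc receptors, measured 6.16 and 14.7 FPKM in Flt3+ and 13.9 and 48.3 FPKM in Flt3- cells (1.35 ± 0.18, adjusted p = 0.00648). It lost its call without the NEBNext Flt3- library (1.41 ± 0.23, adjusted p = 0.0570) and without the SMART-Seq Flt3+ library (1.03 ± 0.18, adjusted p = 0.0795). Fcgr3, an IgG receptor gene whose protein pairs with that chain, measured 0.993 and 3.84 FPKM in Flt3+ and 8.79 and 36.6 FPKM in Flt3- cells (2.63 ± 0.24, adjusted p = 0.000347). Lst1, a small leukocyte membrane protein gene, measured 14.8 and 24.9 FPKM in Flt3+ and 61.4 and 56.3 FPKM in Flt3- cells (1.56 ± 0.21). Fcgr3 and Lst1 showed no overlap between the populations. Tyrobp, encoding the adaptor DAP12, was at 102.5 and 116.1 FPKM in Flt3+ and 190 and 271 FPKM in Flt3- cells, also without overlap, but did not pass (1.05 ± 0.27, adjusted p = 0.129). Cd300a (1.10 ± 0.22, adjusted p = 0.0575) and Fcgr2b (0.90 ± 0.22), both inhibitory receptor genes, did not pass either.

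Granulocyte genes were the other main group of rises. Of 15 granule genes tested, 12 rose and none fell, and their summed level over the list was 200 and 280 FPKM in Flt3+ and 990 and 1871 FPKM in Flt3- cells. Ms4a3, a membrane protein gene of granulocyte and monocyte progenitors, measured 1.99 and 0.472 FPKM in Flt3+ and 23.5 and 72.6 FPKM in Flt3- cells (4.34 ± 0.44, adjusted p = 0.000658). Ly6c2, one of the genes for the monocyte antigen Ly6C, measured 6.12 and 5.25 FPKM in Flt3+ and 50.3 and 68.8 FPKM in Flt3- cells (3.17 ± 0.26, adjusted p = 0.00014). Its near-identical neighbour Ly6c1 measured 6.34 and 3.66 FPKM in Flt3+ and 25.5 and 25.4 FPKM in Flt3- cells, and reads of the 2 genes may be shared. In these 3 genes every Flt3- library lay above every Flt3+ library. Cebpe, encoding the C/EBP factor of late granulocyte maturation, was at 0.039 and 0.033 FPKM in Flt3+ and at 2.16 and 5.24 FPKM in Flt3- cells (2.10 ± 0.30, adjusted p = 0.00936). Trem3 (2.47 ± 0.30), the receptor gene Igsf6 (2.14 ± 0.27), the bacterial peptidoglycan sensor Pglyrp1 (2.11 ± 0.21), the annexin Anxa3 (1.85 ± 0.31), the chemokine Ccl9 (1.46 ± 0.27) and the lectin Fcnb (1.23 ± 0.21) rose as well. Cebpb (1.24 ± 0.34), Cebpd (0.71 ± 0.20) and Cebpa (1.06 ± 0.32), relatives of Cebpe, were higher in each Flt3- library of their kit and did not pass.

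Erythroid and megakaryocyte genes had 2 rises among 19 tested and no fall, with a median of 1.18. Higher in both pairs were 15 of the 19, against 2476 of all 12112 genes tested. The beta globin genes, which share reads, are counted separately in this list. Gfi1b, encoding a transcriptional repressor that acts within these lineages, measured 3.81 and 15.3 FPKM in Flt3+ and 10.99 and 32.5 FPKM in Flt3- cells (1.18 ± 0.22, adjusted p = 0.0402). Its call was kept in 6 of 14 alternatives. Muc13, a transmembrane mucin gene, measured 9.45 and 9.35 FPKM in Flt3+ and 17.05 and 34.2 FPKM in Flt3- cells (1.28 ± 0.21, adjusted p = 0.0228), with no overlap. It lost its call without the NEBNext Flt3+ library (1.47 ± 0.26, adjusted p = 0.0780) and without the SMART-Seq Flt3+ library (1.08 ± 0.26, adjusted p = 0.223). Itga2b, the platelet integrin gene, was at 0.678 and 0.145 FPKM in Flt3+ and 4.66 and 1.18 FPKM in Flt3- cells and did not pass (adjusted p = 0.101). Beta globin transcripts were higher in each Flt3- library. Hbb-bt measured 25.8 and 20.6 FPKM in Flt3+ and 137.6 and 82.9 FPKM in Flt3- cells (2.16 ± 0.48, adjusted p = 0.0806). The globin genes share reads, so their separate values are uncertain. Over the 8 other bulk libraries Hbb-bt ranged from 22.2 to 392 FPKM, and the part of red cell RNA in its difference was not tested.

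A further group of rises does not belong to 1 lineage. Scin, an actin-severing protein gene, measured 14.9 and 21.8 FPKM in Flt3+ and 28.1 and 55.3 FPKM in Flt3- cells (1.09 ± 0.16, adjusted p = 0.0134). Cd160, a receptor gene of natural killer and innate lymphoid cells, measured 1.86 and 6.37 FPKM in Flt3+ and 8.74 and 23.3 FPKM in Flt3- cells (1.75 ± 0.20, adjusted p = 0.00277). In both genes every Flt3- library lay above both Flt3+ libraries. Scin lost its call without either Flt3+ library (adjusted p = 0.113 and 0.157), and Cd160 without the SMART-Seq one (1.58 ± 0.26, adjusted p = 0.0698). Cd160 was the 1 rise among 22 genes of natural killer and innate lymphoid cells. Olfm5 (1.24 ± 0.17), P2rx1 (1.12 ± 0.19), an ATP-gated channel gene, the natural killer adaptor Sh2d1b1 (1.10 ± 0.19), the tubulin Tuba8 (1.05 ± 0.15), the sialic acid receptor Siglecf (1.05 ± 0.16) and Qrfp (1.44 ± 0.23), a neuropeptide gene, rose at levels of at most 17.5 FPKM in these 4 libraries. The claudin gene Cldn15 (1.48 ± 0.21), Bpifc (0.87 ± 0.15), Prr13 (0.86 ± 0.17), the methionine sulfoxide reductase Msrb1 (0.79 ± 0.15), the prostaglandin reductase Ptgr1 (0.79 ± 0.15) and Rab37 (0.76 ± 0.13) rose as well.

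Marker lists of the remaining cell types moved less. Among 20 genes of macrophages and monocytes 2 rose, Ly6c1 and Ly6c2, and the median was -0.05. Of 29 dendritic cell and antigen presentation genes none rose and Ccr9 fell. None of 13 tested genes of endothelium, stroma and epithelium passed, and their summed level was 326 and 216.2 FPKM in Flt3+ and 239 and 150.7 FPKM in Flt3- cells. Among 34 progenitor and stem-cell regulators Cebpe and Gfi1b rose and none fell. None of 79 ribosomal protein genes passed, but 72 were higher in both pairs, against 2476 of all 12112 genes tested. Their medians were 0.59 in the NEBNext pair and 0.26 in the SMART-Seq pair. These models are short, and the NEBNext pair showed the length trend described above. None of 46 DNA replication genes passed, with a median of -0.44. Of these, 37 were lower in both pairs, against 5483 of all 12112 genes tested. Lig1, encoding a DNA ligase, measured 56.1 and 34.4 FPKM in Flt3+ and 32.4 and 19.1 FPKM in Flt3- cells (adjusted p = 0.0700).

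**Figure D3:**
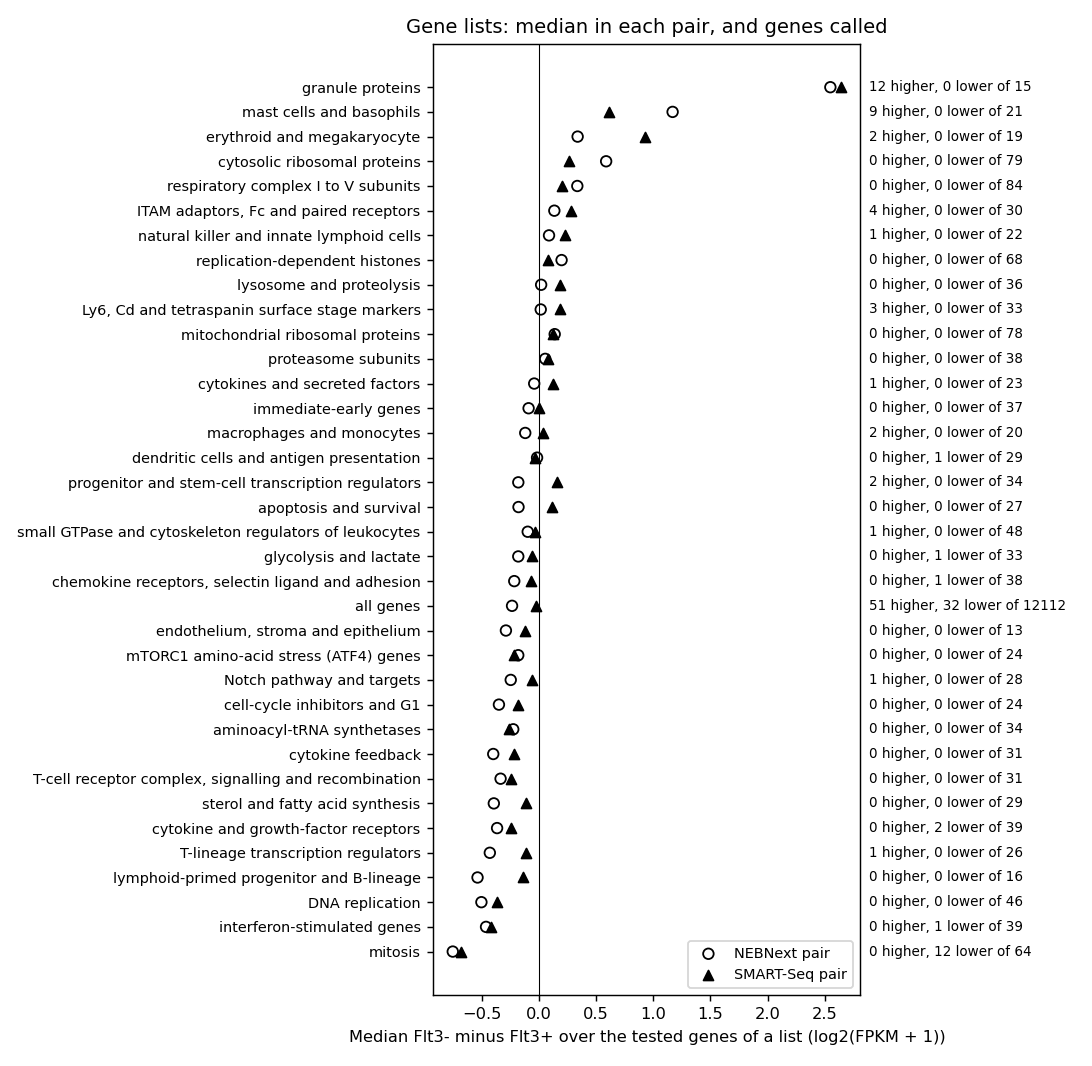
Median difference of each gene list in the NEBNext pair (open circles) and the SMART-Seq pair (triangles) on the log2(FPKM + 1) scale, with the number of genes called at the right and all genes tested as 1 row. Mast cell and granule lists lie to the right and mitosis to the left in both pairs. The erythroid and megakaryocyte list also lies to the right (0.34 in the NEBNext and 0.93 in the SMART-Seq pair). Ribosomal protein genes lie farther right in the NEBNext pair (0.59) than in the SMART-Seq pair (0.26).

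With the library-number series of the labels as the blocking term in place of kit, the differences were the same and their errors smaller. Then 588 genes (4.85%) passed, 1.79% of genes higher and 371 (3.06%) lower, and all 83 calls were among them. The labels do not say that a series shares mice or a day, so this is an alternative. Il7r (adjusted p = 0.0127 with the block), Tyrobp (0.00182), Cebpb (0.0172), Fgf3 (0.0172), encoding a fibroblast growth factor, and Cd63 (0.0445) passed there. Cd63, a tetraspanin gene of granule membranes, differed by 0.60 in the NEBNext pair and by 3.37 in the SMART-Seq pair. Falls of this kind included Skap1, a T-cell adaptor gene (9.93 and 14.9 FPKM in Flt3+, 4.59 and 6.93 FPKM in Flt3-), Tcof1, a ribosome synthesis factor gene (39.6 and 16.7 FPKM against 20.4 and 8.69 FPKM), and Adgrl4, an adhesion receptor gene (17.6 and 55.9 FPKM against 7.14 and 29.1 FPKM). Foxm1, the mitotic transcription factor gene, Ccnf and Mcm10 also passed there, at -0.91 ± 0.20, -0.95 ± 0.20 and -0.96 ± 0.19. Among the largest rises with the block, Atp5e and Myeov2 differed mainly in the NEBNext pair (1.76 and 1.83, against 0.33 and 0.35 in the SMART-Seq pair).

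Whether a difference depended on the pair was tested over all genes with limma. Each compared library was alone in its population and kit there, so the spread came from the populations with 2 NEBNext libraries. The test therefore does not measure the spread of the compared libraries, and a lack of calls does not show that the pairs agree. None passed an adjusted p of 0.05 (0%), and 733 (6.05%) had an unadjusted p under 0.05. Without the filter on low values 301 genes passed after adjustment. In this test kit and library series cannot be told apart. Taking the called genes whose log2 level averaged 3 or more, the 5 with the most positive difference between pairs were Muc13 (1.76 in the SMART-Seq and 0.79 in the NEBNext pair), Fcer1g (1.65 and 1.05), Flt3 (-1.28 and -1.97) and 2 granule genes. The 5 most negative were Lst1 (1.15 and 1.98), Siglecf (0.89 and 1.22), Olfm5 (1.08 and 1.40), Gfi1b (1.04 and 1.32) and 1 mitosis gene.

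The 8 other bulk libraries entered the fit for the kit term, the filter and the estimate of the spread, but not the difference itself. Their levels are given here for the called genes as a description. Mean total ETP lay between the 2 NEBNext libraries compared for 38 of 51 rises and 26 of 32 falls, against 2689 of 12112 genes. Called genes were chosen for differing there, so this larger share is partly fixed by the choice. Hmga2 (13.2 and 11.97 FPKM) and Sema3d (5.75 and 5.23 FPKM) were higher in total ETP than in either NEBNext library compared. All 3 Bcl11b- DN2a libraries lay above all 4 ETP libraries for 9 rises and no fall, against 251 of 12112 genes. These 9 were Tcf7, Muc13, Scin, Olfm5, P2rx1, Tuba8, Siglecf, Bpifc and Ptgr1. Scin measured 106.7 to 160.98 FPKM and Muc13 70.8 to 72.5 FPKM in Bcl11b- DN2a. All 3 lay below all 4 ETP libraries for 14 falls, against 414 of all genes. Among the 14 were Flt3 itself, the gene of the sort, and Ccr9, Hmga2, Gfra1, Irf7, Sema3d and Ankrd6. The 3 libraries also lay below for 6 rises, which were Elane, Prtn3, Prg2, Ms4a3, Ly6c2 and Anxa3. Ms4a3 was at 0.023 to 0.14 FPKM there, and Cma1 at 0 to 0.414 FPKM. All 3 Bcl11b- DN2a libraries were below 1 FPKM for 17 of the rises, Hdc among them (0.082 to 0.255 FPKM), against 578 of 12112 genes. Some of the 17, such as Tph1, Fcnb and Prg2, were above 1 FPKM in the Flt3- libraries only. These passed the filter through the group where they are high, so their low level elsewhere is partly fixed by it. The same holds for Stc1 and Shisa8 among the 14 falls, which were above 1 FPKM in the Flt3+ libraries only. Cpa3 measured 98.7 to 482 FPKM in Bcl11b- and 176.3 to 893 FPKM in Bcl11b+ DN2a, and Ccr9 stayed at or under 0.686 FPKM in all 6 DN2a libraries.

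**Figure D4:**
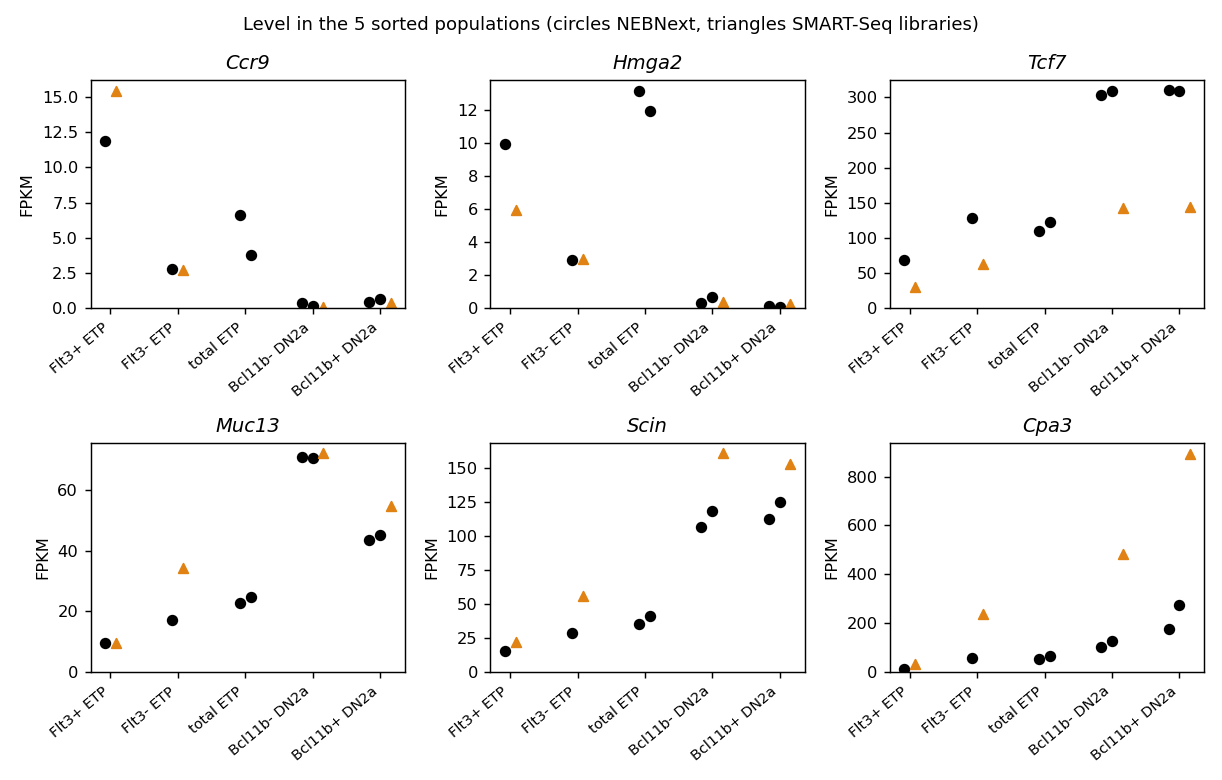
FPKM (linear axes from 0) of Ccr9, Hmga2, Tcf7, Muc13, Scin and Cpa3 in the 5 sorted populations, 1 point per library, with NEBNext libraries as circles and SMART-Seq libraries as triangles. Muc13 reached 70.8 to 72.5 FPKM in Bcl11b- DN2a, and Ccr9 stayed at or under 0.686 FPKM in all 6 DN2a libraries.

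The called genes were then read in 2 droplet (10x) libraries of wild-type cells from the whole Kit+ CD44+ gate. Cells with no UMI (a counted RNA molecule) of Il2ra, the CD25 gene, were thinned to 4000 UMIs each and divided by whether a Flt3 UMI was left. In the 2 libraries 1924 of 2146 and 3185 of 3560 cells had none, which is not the same as the sort, since many cells with Flt3 RNA have no UMI of it. Of 36 rises with at least 10 UMIs in each library, 32 were higher in cells without Flt3 in both libraries, as CPM (UMIs of a gene scaled to the summed UMIs of its cell group), against 30.0% of all genes measured. Of 29 falls, leaving out Flt3, 23 were lower in both, against 23.7%. Tcf7 stood at 143.97 and 159.7 CPM without Flt3 and 82.2 and 61.3 with it. Ccr9 stood at 12.6 and 18.1 without Flt3 and at 30.4 and 42.7 with it. Hmga2 stood at 23.3 and 30.6 without and at 43.9 and 58.7 with Flt3. Each ratio was on the same side of 1 in both libraries, for Tcf7 at 1.75 and 2.60, for Ccr9 at 0.41 and 0.42 and for Hmga2 at 0.53 and 0.52. Muc13 (2.26 and 2.25), Scin (1.77 and 1.76), Cpa3 (2.51 and 2.997) and Fcer1g (1.60 and 1.67) were higher without Flt3, and Irf7 (0.60 and 0.57) and Ankrd6 (0.49 and 0.41) lower. Lst1 (1.08 and 1.13) and Mpo (1.25 and 1.00) were close to 1.

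Granule and mast cell transcripts were then counted per cell on each side of the Flt3 split, of which the side without Flt3 held most cells (1924 of 2146 and 3185 of 3560). Cells with at least 2 UMIs in sum over Elane, Prtn3, S100a8 and S100a9, before thinning, numbered 51 of 1924 and 37 of 3185 without Flt3, against 1 cell with it in each library. Cells with at least 2 UMIs in sum over Cma1, Hdc, Ms4a2, Mcpt1, Mcpt2, Mcpt4 and Mcpt8 numbered 12 and 19 without Flt3 and 0 and 0 among the fewer cells with it, a difference not tested. Without all of these cells, 23 of 31 measured rises were higher in both libraries, against 29.81% of all genes measured. With them it was 32 of 36. Elane, Ms4a3, Igsf6, Cebpe and Anxa3, higher in both libraries before, then had under 10 UMIs in a library and were no longer measured. Of 29 falls, 23 were lower in both, against 23.99%. The ratios then stood at 1.78 and 2.62 for Tcf7, 2.11 and 2.36 for Muc13, and 2.398 and 2.99 for Cpa3. Ly6c2 moved from 7.04 and 2.97 to 1.54 and 0.45 and did not keep 1 direction. Mpo, at 1.09 and 0.89, did not keep it either. Genes used to choose the cells left out had to move, so their ratios are not read. Prtn3 and Mcpt8 are such genes and stand among the 31 rises. Mcpt8 is counted in the 23 rises that stayed higher, and Prtn3 is not. With thinning to 2000 UMIs, 28 of 32 rises and 12 of 27 falls kept their side. The libraries shared 55 cell barcodes, and median depths before thinning were 8212.5 and 6293 UMIs without Flt3 and 9220 and 6477 with it. Cells of the same library are not replicates, so no test was made.

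**Figure D5:**
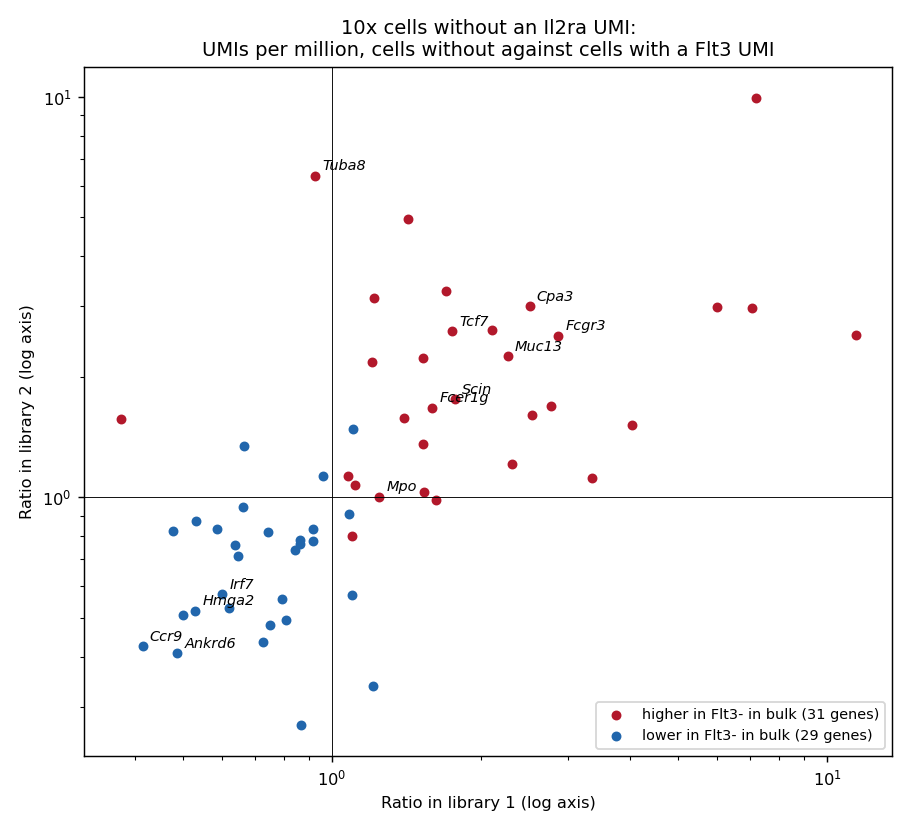
Ratio of CPM in 10x cells without a Flt3 UMI to cells with one, in library 1 (x, log axis) and library 2 (y, log axis), for the 31 rises (red) and 29 falls (blue) with a value above 0 in both cell groups of both libraries. Most rises lie above 1 on both axes and most falls below, with Tcf7 at 1.75 and 2.60 and Ccr9 at 0.41 and 0.42.

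The same genes were read in C1 cells, single cells captured on a microfluidic chip. Of the cells kept, 99 had no more than 1 FPKM of Il2ra, and 33 of these had no more than 1 FPKM of Flt3 while 66 had more. Intervals are exact binomial (Clopper-Pearson, 95%) and cover counting error only. Of 30 rises seen in at least 10 of these cells, 28 were found above 1 FPKM in a larger share of the cells without Flt3, against 27.6% of all genes. Cells without Flt3 had fewer genes above 1 FPKM (median 4394 against 4748), and 65.2% of all genes were in a smaller share of them. Of falls in mitosis 11 of 12 were in a larger share of the cells without Flt3 and none in a smaller one, the opposite side from the bulk libraries. Of the other 8 falls seen in at least 10 cells, 6 were in a smaller share. Pygb was above 1 FPKM in 1 of 33 cells without Flt3 (3.03%, interval 0.0767 to 15.8%) and in 18 of 66 with it (27.3%, 17.03 to 39.6%). Irf7 was above it in 4 of 33 (12.1%, 3.40 to 28.2%) and 22 of 66 (33.3%, 22.2 to 46.01%). Ccr9 was found in 0 of 33 and 8 of 66 cells (12.1%, 5.38 to 22.5%), where 0 of 33 allows up to 10.6% by the same interval. Tcf7 was in 21 of 33 (63.6%) and 39 of 66 (59.1%), shares whose intervals overlap.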

How the data were processed

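RNA-seq libraries of sorted thymic progenitors were compared from a table of FPKM values deposited by the authors. Per the submitters' processing notes, STAR 2.4.0, RSEM 1.2.25, HOMER and edgeR 3.6.8 were used with mm10 (GRCm38), without a role given for each. The deposited droplet files hold UMI counts, with Cell Ranger 2.0 named in the same notes, and the authors' C1 files hold FPKM values. Columns of the SMART-Seq libraries were matched to samples by their population names. No other column of sample values was left unused (0).

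The members and gene lists were chosen with earlier results of these data known. Genes above 1 FPKM in at least 2 of the 12 libraries (12112 of 24506) were fitted on log2(FPKM + 1) with limma 3.58.1 (R 4.3.3), with population and kit as terms and a trended prior, and p-values were Benjamini-Hochberg adjusted over all of them. All 12 libraries share 1 estimate of the spread. The rule for named genes took all called genes with a gene name (80 of 83, of which 1 is not reported here), up to 4 further members of a list by p, and the largest changes of the other tests, with granule and mitosis genes mainly counted. Dividing each low FPKM value by the worth of 1 read gave whole reads (within 0.1) for 100% of values under 30 reads, which edgeR 4.0.16 tested as an alternative. The fit was tested on simulated data. Droplet cells had at least 1000 genes and under 10% mitochondrial UMIs, and genes needed 10 UMIs in each library. No doublet caller was run. Cell data were read with Python 3.11.15, numpy 2.4.6, scipy 1.17.1 and pandas 2.3.3.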

Additional observations from a re-analysis of the deposited data

How the results depend on the processing

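Of the 14 alternatives to the fit, none turned the direction of a named gene. With the series block, without the kit term, with the 4 ETP libraries alone or with another filter, the difference itself is unchanged. Its sign could not turn in those cases. The reported fit called 83 genes (0.421% of those tested higher, 0.264% lower, 22 distinct list genes, counting all lists but granule and mitosis). The library series as a replicate block gave 588 (1.79% higher, 3.06% lower, 96 list genes), and the 4 ETP libraries alone, with kit as a replicate block, gave 574 (2.34% higher, 2.39% lower, 91 list genes). With 2 pairs, deviations of paired libraries correlated at 0.916, a value that holds the kit difference, and at 0.10 with kit removed. What the library numbers mark beyond kit was not tested. Without the kit term 10 passed (0.0826% higher, 0% lower, 1 list gene). A pseudocount of 0.1 gave 51 (0.0661% lower), quantile normalization 55 (0.0413% lower) and edgeR on recovered reads 58 (0.0991% lower). With no filter there were 14 list genes, and 301 genes passed the test between pairs after adjustment, against 0. Leaving out 1 library gave 14 to 1605 called, 0.107% to 2.73% higher, 0% to 10.5% lower and 2 to 130 list genes. A left-out library leaves an arm with 1 sample, assumed to vary like the other groups. The share of calls that were higher was 61.4% in the reported fit, 36.9% with the series block, 84.3% with the pseudocount of 0.1 and 90.9% with quantile normalization, which moved the median of all genes from -0.15 to -0.03. Thinning to 2000 UMIs left 12 falls lower in both droplet libraries, against 23. The cause of these changes was not tested. Elane, Ms4a3, Prtn3, Ly6c2, Cma1 and Prg2 passed in all 14. Prg2 was above 1 FPKM, and Cma1 above 5 FPKM, in the Flt3- libraries only. They met the filters at these levels through the group where they are high, so those settings give their calls no support. Genes under about 1 FPKM in Flt3+ cells rest on few reads.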
